A study of Mus musculus with 2 samples.

Results

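A set of 8 genes tied to Alzheimer or Parkinson disease, App, Bace1, Psen2, Mapt, Apoe, Clu, Bin1 and Lrrk2, was followed in accessible chromatin of the adult mouse cortex. They were taken by their symbols in the GENCODE M21 annotation, 8 of 21938 protein-coding genes, and all 8 were found once. The mice were males of 8 to 10 months, with no treatment named in the labels, from the B6CASTF1/J cross, an F1 hybrid between C57BL/6J and the wild-derived strain CAST/EiJ, and the tissue was left cerebral cortex. DNase-seq, which sequences the ends that the enzyme DNase I leaves where it cuts open chromatin, was done on 2 libraries, named replicates 1 and 2 in the labels. Their donor identifier is shared and their biosample identifiers differ, so the spread between them may leave out differences between animals. There was 1 group and so no contrast, and no p-value was computed.

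App encodes the amyloid precursor protein. Bace1 is the beta-secretase that makes the first cut in the release of amyloid-beta from it, and Psen2 is a catalytic subunit of gamma-secretase, which makes the last. Mapt encodes tau, the microtubule-binding protein that forms tangles. Apoe and Clu encode secreted lipid carriers, made in the brain largely by astrocytes, of which Clu is also an extracellular chaperone. Bin1 bends membranes in endocytosis, and Lrrk2 is a kinase of Rab proteins whose mutations cause familial Parkinson disease. A nuclease-accessible site usually marks a promoter or an enhancer held open by bound proteins, and a footprint is a short protected run inside such a site.

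The authors deposited 2 peak lists for each library. The smaller is called the stricter list here and held 40705 and 39508 peaks in replicates 1 and 2, and the broader list held 71210 and 72217. Footprints numbered 166128 and 174394. Each peak carries a signal value, called its strength, whose unit is not stated and whose median over stricter peaks was 1.22 and 1.15. As checks of the tissue, stricter promoter peaks in both libraries were counted over marker lists. They were found at 5 of 5 pan-neuronal, 3 of 4 excitatory-neuron, 0 of 4 inhibitory-neuron, 2 of 5 astrocyte, 1 of 5 oligodendrocyte, 1 of 2 oligodendrocyte-precursor and 1 of 5 microglial markers. A single library had one at 2 further inhibitory-neuron, 1 astrocyte and 1 oligodendrocyte markers, and in the broader list the inhibitory-neuron markers Gad1, Gad2 and Slc32a1 had a promoter peak in both. None was found at 3 endothelial, 3 liver, 3 heart and 3 erythroid markers. Of all 21938 protein-coding genes, 54.9% had a stricter promoter peak in both libraries. In a bulk tissue, a site open in fewer cells and a site cut less in each cell cannot be told apart, and that holds for every strength below.

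The promoter stretches on which the results below turn are shown first, because the genes differ in base composition and in how much of the promoter lay in footprints. Each is the run of the shared promoter peak, free of annotated untranslated sequence, that held most bases in footprints of both libraries. It is read 5′ to 3′ along the gene's own strand from the mm10 reference, with capitals marking bases inside footprints of both libraries. For Mapt it is the last 200 bases before the first annotated start, within the merged promoter peak.
App promoter, chr16:85173767-85173920, minus strand: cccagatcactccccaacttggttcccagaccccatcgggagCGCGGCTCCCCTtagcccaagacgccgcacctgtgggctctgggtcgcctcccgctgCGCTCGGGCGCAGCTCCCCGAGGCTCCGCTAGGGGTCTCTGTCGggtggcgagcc
Bace1 promoter, chr9:45838461-45838579, plus strand: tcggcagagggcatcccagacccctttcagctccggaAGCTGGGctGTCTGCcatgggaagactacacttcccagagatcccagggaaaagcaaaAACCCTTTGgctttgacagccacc
Psen2 promoter, chr1:180256301-180256440, minus strand: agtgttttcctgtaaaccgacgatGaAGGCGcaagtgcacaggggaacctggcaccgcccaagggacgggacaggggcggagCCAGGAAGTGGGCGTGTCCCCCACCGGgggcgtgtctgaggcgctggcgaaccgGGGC
Mapt promoter, chr11:104231190-104231389, plus strand: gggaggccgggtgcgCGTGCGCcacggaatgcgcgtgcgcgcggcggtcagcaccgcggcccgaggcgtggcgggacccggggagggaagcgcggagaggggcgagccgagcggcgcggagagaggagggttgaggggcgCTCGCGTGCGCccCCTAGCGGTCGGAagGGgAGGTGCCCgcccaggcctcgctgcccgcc
Clu promoter, chr14:65968361-65968482, plus strand: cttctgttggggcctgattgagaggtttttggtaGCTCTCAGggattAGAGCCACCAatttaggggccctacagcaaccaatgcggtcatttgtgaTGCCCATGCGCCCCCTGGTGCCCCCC
Lrrk2 promoter, chr15:91673021-91673174, plus strand: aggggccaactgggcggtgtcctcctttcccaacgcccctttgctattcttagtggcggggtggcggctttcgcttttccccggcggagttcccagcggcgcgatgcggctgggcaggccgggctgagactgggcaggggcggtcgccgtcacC
The App stretch of 154 bases held 56 footprinted bases, the Clu stretch of 122 held 44, and the Mapt stretch of 200 held 41. In Psen2 37 of 140 bases and in Bace1 22 of 119 were footprinted in both libraries. The Lrrk2 stretch was nearly bare, with 1 of 154, but a 200 bp window centred on its promoter peak held 16. Each stretch was chosen by its footprinted bases and leaves out untranslated sequence, so these counts do not rank the promoters. The part of the Apoe promoter peak that the libraries shared lay almost wholly in annotated untranslated sequence and is not printed.

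The other sequences shown are 200 bp windows centred on the strongest site of 5 of the genes that was found in both libraries and lay over 1 kb from any annotated start. They are shown because most of them share a CTCF-like stretch, described further on, and capitals again mark bases in footprints of both libraries.
App last intron, chr16:84955541-84955740, minus strand: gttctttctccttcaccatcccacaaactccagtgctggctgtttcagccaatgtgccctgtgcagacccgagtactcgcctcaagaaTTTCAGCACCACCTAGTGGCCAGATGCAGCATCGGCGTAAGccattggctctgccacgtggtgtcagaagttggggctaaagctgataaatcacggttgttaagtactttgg
Psen2 upstream site, chr1:180268681-180268880, minus strand: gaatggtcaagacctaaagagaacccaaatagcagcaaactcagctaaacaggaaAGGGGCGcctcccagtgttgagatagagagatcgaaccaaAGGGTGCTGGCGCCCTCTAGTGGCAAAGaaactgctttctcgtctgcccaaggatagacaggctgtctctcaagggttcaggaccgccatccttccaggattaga
Mapt upstream site, chr11:104195921-104196120, plus strand: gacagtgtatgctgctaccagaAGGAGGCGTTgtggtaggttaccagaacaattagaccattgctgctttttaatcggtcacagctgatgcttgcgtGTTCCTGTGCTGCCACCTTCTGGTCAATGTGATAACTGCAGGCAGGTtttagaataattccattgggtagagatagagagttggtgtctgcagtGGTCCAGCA
Apoe downstream site, chr7:19668981-19669180, minus strand: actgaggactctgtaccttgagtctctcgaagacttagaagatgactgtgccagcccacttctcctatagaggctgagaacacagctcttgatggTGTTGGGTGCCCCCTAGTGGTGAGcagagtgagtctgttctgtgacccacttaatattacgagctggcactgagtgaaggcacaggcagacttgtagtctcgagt
Clu downstream site, chr14:65982221-65982420, plus strand: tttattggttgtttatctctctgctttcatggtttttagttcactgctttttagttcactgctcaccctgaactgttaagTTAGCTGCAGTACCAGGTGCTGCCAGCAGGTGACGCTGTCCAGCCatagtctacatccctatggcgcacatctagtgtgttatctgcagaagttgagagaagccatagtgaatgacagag
The longest capital run in each of these 5 windows lies close to the centre. Bace1 had no site of this kind, and those of Bin1 and Lrrk2 are not printed.

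All 8 genes had a stricter peak within 1 kb of an annotated start in both libraries. Over all protein-coding genes the share was 54.9%. The strongest such peak of a gene is called its promoter peak. Its strength had a median over the 8 genes of 3.15 in replicate 1 and 2.75 in replicate 2 (mean 2.95 ± 0.287, SD, n = 2), beside 2.66 and 2.32 over all genes with such a peak. The 5 genes Clu, Bace1, App, Psen2 and Mapt were above the median of all promoters in both libraries, and Bin1, Lrrk2 and Apoe were below it in both. How many of all genes with such a peak lay above it in both libraries was not counted.

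Of the amyloid genes, App had a promoter strength of 3.56 in replicate 1 and 2.81 in replicate 2 (chr16:85173681-85173920, minus strand). Bace1 had 3.37 and 3.33 (chr9:45838441-45838700, plus strand), the closest pair of values among the 8 genes. Psen2 had 3.04 and 2.90 (chr1:180256241-180256460, minus strand). The range of App over the libraries took in the values of both others, while Bace1 was above Psen2 in each library.

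Mapt stood beside them, with 3.26 and 2.68 over a merged promoter of 797 bp (chr11:104230984-104231780, plus strand). Clu had the strongest promoter peak of the set in both libraries, 4.81 and 4.07 (chr14:65968361-65968760, plus strand), at the 87.3 and 87.7 percentiles of all promoter peaks. The other lipid carrier, Apoe, had 1.57 and 1.19 (chr7:19698995-19699237, minus strand), at the 23.9 and 15.9 percentiles. The ranges of Clu and Apoe did not overlap. The kinase gene Lrrk2 was as low as Apoe, with 1.47 and 1.34 (chr15:91672981-91673380, plus strand), and the order of these lowest genes turned between the libraries. The endocytic gene Bin1 lay in between with 2.58 and 2.18 (chr18:32376981-32377380, plus strand). Its peak was also within 1 kb of a start of the noncoding gene A830052D11Rik. Clu ranked first and Bin1 sixth in each library.

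**Figure D1:**
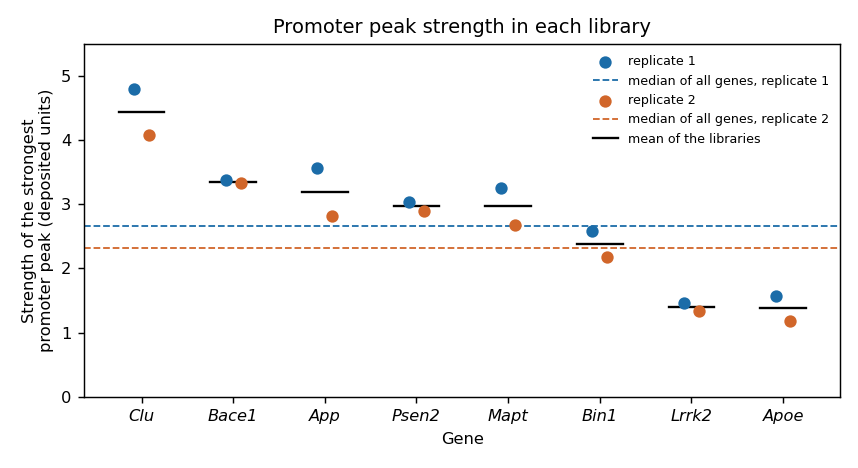
Strength of each gene's promoter peak in replicate 1 (blue) and replicate 2 (orange), in the deposited units, with the mean of the libraries as a black bar and the median over all genes with a promoter peak as a dashed line. Clu is highest at 4.81 and 4.07, Lrrk2 and Apoe are lowest, and every orange point is below its blue partner.

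All 8 promoter values were lower in replicate 2, by 0.02 (Bace1) to 0.41 (Apoe) on the log2 scale. Over all 12042 genes that had such a peak in each library, the median log2 difference, replicate 2 minus replicate 1, was -0.17, with 5th and 95th percentiles of -0.61 and 0.29. Each of the 8 differences lay between these percentiles.

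The 8 genes have 69 annotated starts, of which 40 lay within 1 kb of a stricter peak in both libraries and 28 in neither. The starts of App near peaks (7 of 11) are the cluster at its 5′ end. For Mapt 8 of 11, for Clu 8 of 9 and for Apoe 9 of 10 starts were near a peak, while for Lrrk2 it was 1 of 6, for Bin1 3 of 5 and for Bace1 2 of 5. For Psen2 it was 2 of 12, the same share as for Lrrk2. Several starts can lie near the same peak, and fewer were covered by one. Peaks of both libraries covered 29 of the 69 starts, among them 4 of 10 for Apoe and 3 of 9 for Clu. The Psen2 promoter peak covered the coding-transcript start at chr1:180256300, 3.2 kb upstream of the start of the transcript annotated as principal (chr1:180253138), and neither that start nor the most upstream one (chr1:180263438) had a peak within 1 kb. A second peak beside it (chr1:180255525-180256100) had strengths of 0.654 and 1.15. Both lay within 1 kb of a start of the noncoding gene Gm31728 as well.

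Footprints crossed each of the 8 promoter peaks in both libraries. The merged Mapt promoter, the widest at 797 bp, held most, 11 in replicate 1 and 14 in replicate 2. The Clu promoter, of 400 bp, held 9 in each, and these counts were not scaled to width. Bace1 held 6 in each, Psen2 5 and 6, App 5 and 4, Lrrk2 3 and 6, Bin1 3 and 4, and Apoe 3 and 1. Within a 200 bp window on the centre of the peak, footprints of both libraries covered 72 bases in App, 61 in Clu, 50 in Psen2 and 47 in Bace1. They covered 30 in Mapt and 16 in Lrrk2, but 7 in Apoe and 11 in Bin1. In Apoe the libraries placed their footprints mostly on different bases, 31 and 24 in all.

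**Figure D2:**
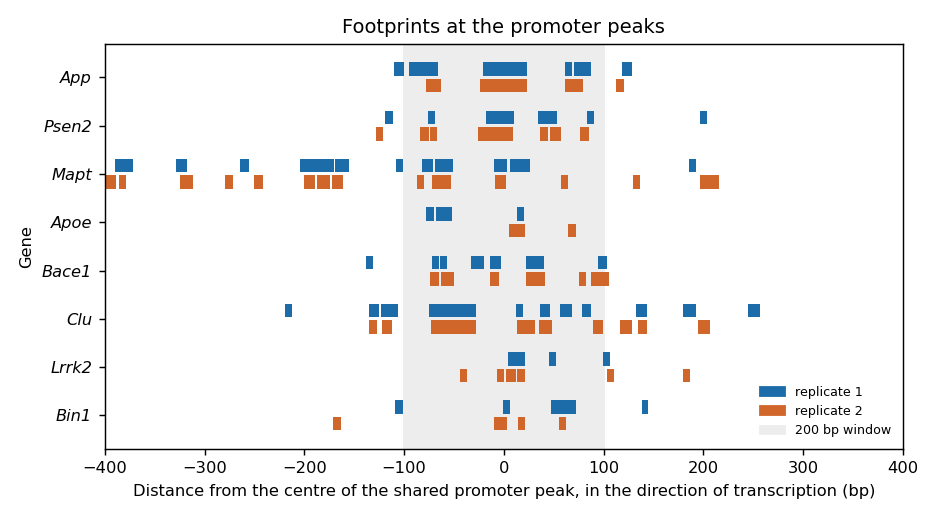
Footprints around the centre of each promoter peak, with distance in bp along the direction of transcription, for replicate 1 (blue) and replicate 2 (orange). The grey band is the 200 bp window, in which footprints of both libraries covered 72 bases in App and 7 in Apoe.

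By CpG content 3 of the promoters stood apart. In the same 200 bp windows, the ratio of observed to expected CpG dinucleotides was 0.376 in Apoe, 0.330 in Bace1 and 0.496 in Clu, all below the 10th percentile of 11445 promoter windows (0.521). The other 5 genes lay above it, with 0.672 in Bin1, 0.791 in App, 0.833 in Psen2, 0.862 in Lrrk2 and 1.11 in Mapt, around a median of 0.846. GC content ran from 60.5% (Bace1 and Clu) to 75.5% (Lrrk2), beside a median of 65%. A low CpG ratio went with the strongest promoter of the set (Clu) and with one of the weakest (Apoe).

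A set of 19 consensus sequences were searched on both strands of these windows, and 13 of them had no match in any of the 8. The SP/KLF box GGGCGG was present in 6 genes, all but Bace1 and Clu, beside 58.3% of all promoter windows. CCAAT was present in Apoe and Clu (32.8% of windows), and the ETS letters CCGGAAG in Bace1 (16.4%). Clu alone had TATAAA (2.32% of windows), the AP-1 letters TGANTCA (2.23%) and the MEF2 consensus (0.393%), and its MEF2 and TATA matches overlap. The TATAAA lies 28 bp before an annotated start of Clu at chr14:65968642, counted from its first letter. That start belongs to a transcript annotated for nonsense-mediated decay. The principal coding start, at chr14:65968483, lies upstream of the TATAAA. Of 17 matches in the 8 windows, 4 touched a base in footprints of both libraries. The share of other positions in the windows that would do so was not computed. The matches are descriptions of letters and do not show binding.

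Beyond the promoters, peaks and footprints were counted over each gene and 50 kb on each side, and set beside the fifth of protein-coding genes of like length. The stricter peaks had a median over the 8 genes of 5.5 in replicate 1 and 4.5 in replicate 2, beside 4 and 4 over all genes. Mapt held 7 and 9 stricter peaks (median for its length 5), Apoe 6 and 8 (median 3), Clu 7 and 5 (median 4) and Psen2 5 and 5 (median 4). These 4 genes were above the median of genes of like length in both libraries. Their percentiles were 71.0 and 86.0 for Mapt, 75.6 and 85.1 for Apoe, 77.8 and 60.1 for Clu, and 58.7 and 60.3 for Psen2. The share of all genes above that median in both libraries was not counted. Lrrk2 held 3 and 4 (median 5), at the 25.1 and 38.8 percentiles, and was the only gene of the set below the median in both. App held 9 and 4, on either side of its median of 5. Bace1 held 5 and 4 and Bin1 5 and 4, beside medians of 4 and 5.

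The broader list gave 14 and 14 peaks at App, so the drop seen in its stricter peaks was not present there. It gave 8 and 7 at Psen2, 9 and 13 at Mapt, 7 and 8 at Apoe, 10 and 11 at Bace1, 8 and 7 at Clu and 12 and 9 at Bin1, with a median of 8.5 in each library beside 6 over all genes. Lrrk2 again had fewest, 5 and 3, at the 21.4 and 9.08 percentiles of genes of like length. Its footprints were also few, 8 and 11, while Mapt held 30 and 38, Apoe 30 and 26, Bace1 29 and 23, App 26 and 16, Psen2 24 and 21, Clu 20 and 17 and Bin1 20 and 20. The median over the 8 genes was 25 and 20.5 footprints, beside 17 and 18 over all genes.

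**Figure D3:**
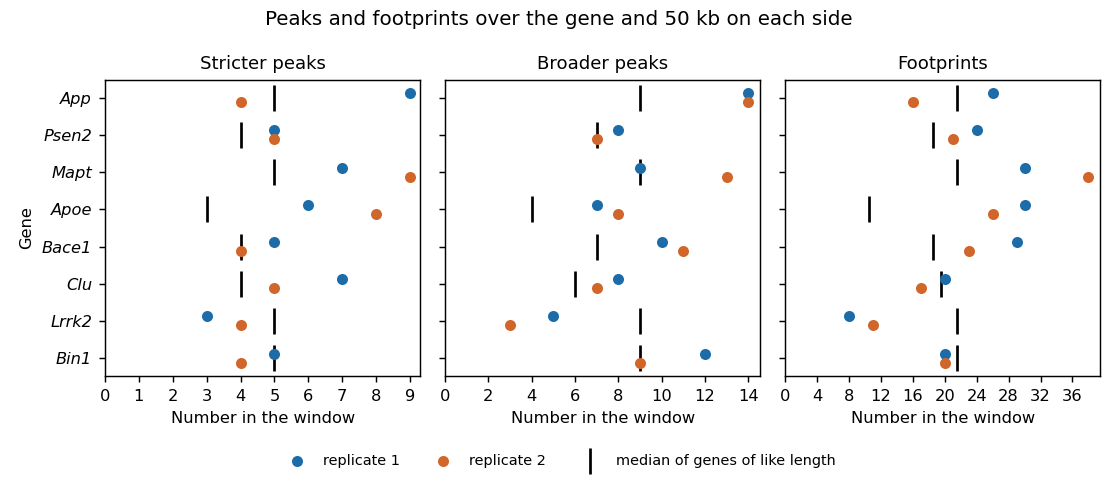
Number of stricter peaks, broader peaks and footprints over each gene and 50 kb on each side, for replicate 1 (blue) and replicate 2 (orange), with the median over genes of like length as a black tick (averaged over the libraries). Lrrk2 lies left of its tick in all 3 panels, and App differs between the libraries in stricter peaks (9 and 4) but not in broader peaks (14 and 14).

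The stricter peaks of both libraries merged into 55 sites, of which 31 were found in both libraries, 14 in replicate 1 alone and 10 in replicate 2 alone. Sites of both libraries were stronger, with a median of 1.97 (0.748 to 5.17), than those of 1 library, with 0.934 (0.303 to 1.57). Of the 24 sites of 1 library, 15 were in the broader list of the other. Own starts accounted for 19 sites (14 in both libraries) and starts of neighbouring coding genes for 9 (6 in both). Inside the genes away from starts lay 18 sites, of which 4 were in both libraries, while 6 of the 7 sites between genes were. App held 6 and Bin1 5 of the 18. How often peaks of these classes are found in both libraries was not counted over all stricter peaks. Counted by peak, 70.2% and 76.7% of the stricter peaks of replicates 1 and 2 in these windows overlapped one of the other library (33 of 47 and 33 of 43), beside 76.5% and 78.4% over all stricter peaks.

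**Figure D4:**
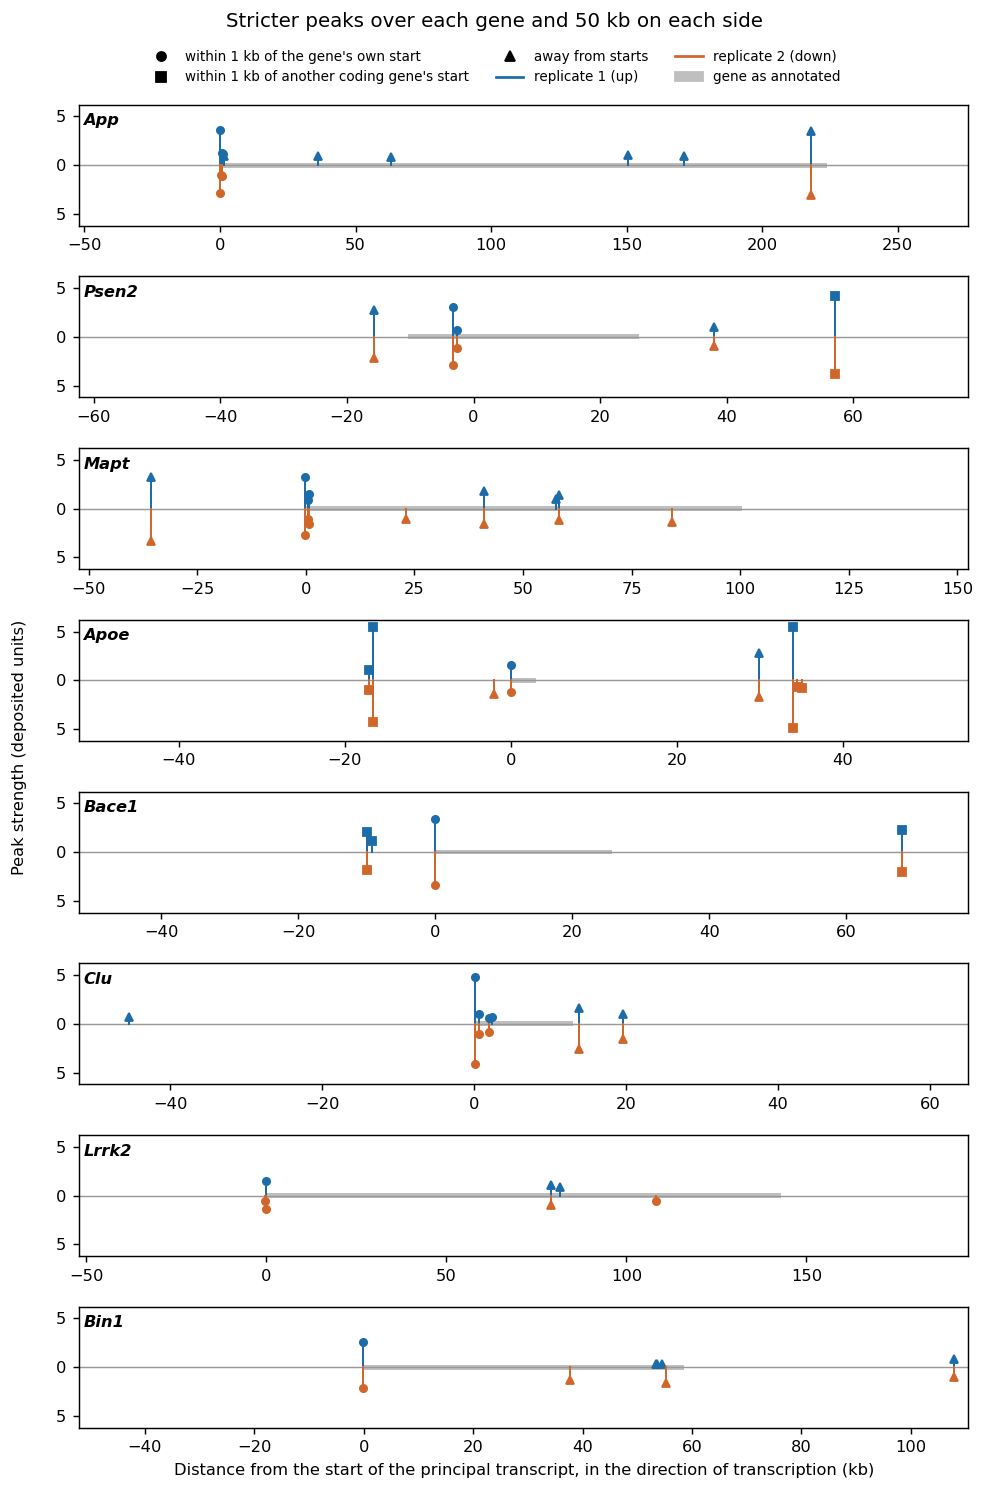
Sites of the stricter list along each gene and 50 kb on each side, as distance in kb from the start of the principal transcript, with peak strength of replicate 1 drawn upward and of replicate 2 downward. Circles are sites at the gene's own starts, squares sites at other coding genes' starts and triangles sites away from starts. App shows a site near its 3′ end as strong as its promoter, and Bace1 shows no triangle.

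App had one distal site that matched its promoter in strength. It lay in intron 15, the last intron, at chr16:84955521-84955740, 218 kb from the start, with strengths of 3.46 and 3.11 beside promoter values of 3.56 and 2.81. The next 2 sites away from starts, in intron 9 (chr16:85023254-85023360, 1.06) and intron 1 (chr16:85172113-85172198, 0.976), were stricter peaks in replicate 1 alone. That held for 6 sites of App, which lay in introns 1, 2, 9 and 11, and all 6 were in the broader list of replicate 2 at strengths of 0.667 to 0.991. Their lowest false discovery rates in replicate 2, which the authors deposited for short intervals, ran from 0.000568 to 0.0293. App thus had fewer stricter peaks in replicate 2 at sites that both libraries recorded.

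Psen2 had the same 5 sites in both libraries. Its strongest distal site lay between genes, 15.7 kb upstream of the principal start (chr1:180268681-180268900), with 2.80 and 2.21. Another between genes at chr1:180215101-180215318 had 1.02 and 0.917. The strongest peak of its window, with 4.18 and 3.79, was at the start of the neighbour Coq8a, a gene of coenzyme Q synthesis.

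The strongest site of Mapt lay outside the gene, 35.6 kb upstream of the start at chr11:104195921-104196120. It had strengths of 3.27 and 3.31 and was thus at least as strong as the promoter in both libraries (3.26 and 2.68). Inside the gene, a site in intron 1 (chr11:104272423-104272620) had 1.75 and 1.54, and one over coding exon 4 of 12 (chr11:104289844-104289996) had 1.41 and 1.17. A site in intron 8 (chr11:104315846-104315931) was a stricter peak of replicate 2 alone, at 1.40, and had 1.21 in the broader list of replicate 1.

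At Apoe most of the open chromatin belonged to neighbours. Of its 8 sites, 5 were at starts of other coding genes. The peak at Tomm40, a subunit of the mitochondrial import pore, had 5.52 and 4.24, and the peak at Clptm1 had 5.43 and 4.92, beside 1.57 and 1.19 at Apoe itself. The lipoprotein genes Apoc1, Apoc2 and Apoc4 of the same cluster had no promoter peak in either library. A site between genes 29.9 kb downstream of the start (chr7:19668961-19669540) had 2.76 and 1.76, which is stronger than the Apoe promoter in both libraries. A site 2.06 kb upstream (chr7:19701161-19701340) had 1.39 in the stricter list of replicate 2 and 1.06 in the broader list of replicate 1.

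Bace1 had only 4 sites, its promoter and 3 at the starts of neighbours. The start of Cep164, a centriole gene, had 2.10 and 1.83, and a site within 1 kb of starts of both Rnf214 and Pcsk7 had 2.30 and 2.00. No stricter site lay inside Bace1 or between genes of its window, although 5 and 7 peaks of the broader list fell outside its stricter sites, at strengths up to 0.976 and 0.713.

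Clu was followed by a site 13.8 kb from its start, just past the end of the gene (chr14:65982221-65982420), with 1.61 in replicate 1 and 2.56 in replicate 2. A site inside the next gene, Gulo (chr14:65988021-65988200), had 0.967 and 1.59. Both were stronger in replicate 2, against the direction of all 8 promoters. Neither Gulo, Scara3 nor Adam2 had a promoter peak. A site in Scara3 (chr14:65922970-65923244) had 0.692 in replicate 1 alone. Inside Clu, peaks in intron 1 near alternative starts had 1.01 and 1.07 (chr14:65968921-65969239) and 0.626 and 0.870 (chr14:65970406-65970620).

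Lrrk2 spans 143 kb, and 2 of its 5 sites were found in both libraries. A site in intron 31 (chr15:91754748-91754824) had 0.825 in replicate 1, with no entry in either list or among the false discovery rates of replicate 2. Its neighbour Smgc had no promoter peak.

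Bin1 shared 2 sites between the libraries, its promoter and a weak one between genes (chr18:32485021-32485240, 0.825 and 0.963). In replicate 2 alone, sites in intron 14 (chr18:32432381-32432580, 1.57) and intron 6 (chr18:32414881-32415080, 1.34) were stricter peaks, and the broader list of replicate 1 held them at 1.18 and 0.967. In replicate 1 alone, a trio stood close together around intron 11 and exon 12 of 15 (chr18:32430561-32430620, chr18:32430661-32430880 and chr18:32431461-32431980). Their strengths of 0.303, 0.341 and 0.379 were the lowest of all 55 sites, at the 0.717, 1.01 and 1.54 percentiles of the library, yet their lowest false discovery rates were 7.35e-14, 4.76e-15 and 1.21e-17. Replicate 2 listed no interval under 0.05 there. At the Bin1 promoter, the lowest rate of replicate 1 was 7.35e-14 at a strength of 2.58.

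**Figure D5:**
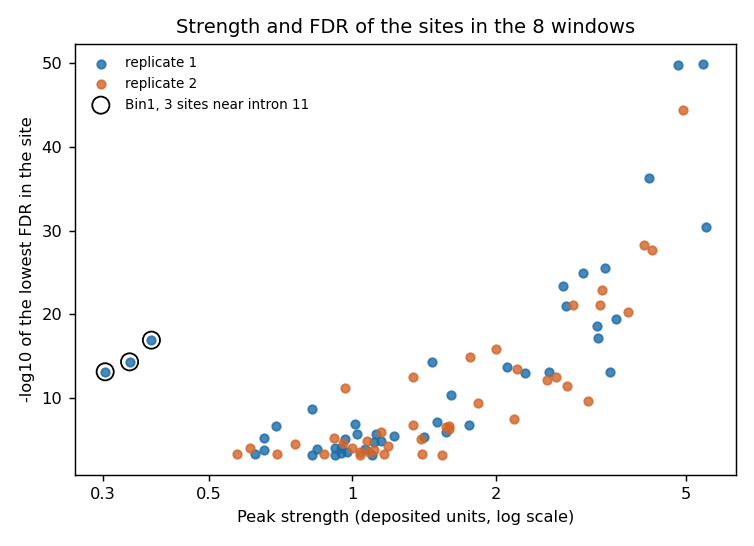
Strength of each of the 55 sites (log axis) against -log10 of the lowest false discovery rate within it, for replicate 1 (blue) and replicate 2 (orange). The circled Bin1 sites of replicate 1 have strengths of 0.303 to 0.379 but rates as low as 1.21e-17, apart from the trend of the other sites.

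The strongest site away from starts in both libraries, which 7 of the 8 genes had, was searched for the consensus of CTCF, a zinc-finger protein that organises chromatin loops. It matched without a mismatch in Psen2 and Apoe, and with at most 1 mismatch also in App, Mapt, Clu and Lrrk2, so 6 of 7, with Bin1 the exception. The search with a mismatch was added after the exact matches had been seen. Over the strongest such site of each of 12628 protein-coding genes, 20.0% matched exactly and 51.6% with at most 1 mismatch. Over all 13636 such sites the shares were 15.3% and 39.5%. In the windows shown above, the 14 letters were bases 94 to 107 in App, 105 to 118 in Psen2, 107 to 120 in Mapt, 102 to 115 in Apoe and 103 to 116 in Clu, and in these 5 genes every letter lay in footprints of both libraries. Of the 8 promoter windows, only that of Clu held such a match (5.75% of promoter windows), with 1 mismatch and all 14 letters footprinted, at bases 104 to 117 of the stretch shown. The Mapt stretch shown, which lies outside that gene's window, held one with 1 mismatch at bases 148 to 161, of which 12 were footprinted.

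Other genes of the same pathways were counted from a list of 49, all found in the annotation. A promoter peak in both libraries was present at 41 and in neither at 8, beside 54.9% of all protein-coding genes with one. It was present at 12 of 13 genes of App processing (all but Ide, an amyloid-degrading protease), 5 of 6 tau kinases and phosphatases, 6 of 6 lipid carriers and receptors and 15 of 15 Parkinson genes. Of 9 microglial and endocytic risk genes it was present at 3. The genes without one were Trem2, Tyrobp, Cd33, Inpp5d, Spi1 and Plcg2, of which Inpp5d had 0.995 and 0.944 in the broader list, and the count for microglial markers above was 1 of 5. Whether the share of microglia in the tissue had a part in this was not tested. Cdk5r1, the activator of the tau kinase Cdk5, had no stricter promoter peak either but had 2.42 and 2.53 in the broader list. The strongest promoters of the list, by the mean over the libraries, were those of the tau kinases Gsk3b (6.80 and 4.74), Mark2 (6.32 and 4.25) and Cdk5 (6.22 and 3.87). In replicate 2 alone, Aplp2 (4.68 and 5.02) was the strongest and Uchl1 (3.63 and 4.10) was also above Cdk5. The windows of Lrp1, an endocytic receptor for Apoe (15 and 18), and of Cdk5 (12 and 14) held many stricter peaks.

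For each of the 8 genes the most similar protein-coding gene was found from 6 values, the promoter strength, stricter peaks and footprints of the window in each library. The measure was the Euclidean distance after log2 of the value plus 1 and scaling to unit SD over the 21938 genes. These were Cadm1 for App (distance 0.225), Pwp1 for Bace1 (0.152), Kif20a for Psen2 (0.0950), Adipor2 for Mapt (0.0736), Duxf3 for Apoe (0.171), Lnx2 for Clu (0.208), Nsmce4a for Bin1 (0.106) and Sun3 for Lrrk2 (0.227). Adipor2, closest of all, had 3.22 and 2.80 at its promoter and 7 and 9 stricter peaks, where Mapt had 3.26 and 2.68 and also 7 and 9.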

How the data were processed

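DNase-seq libraries of 2 samples of 1 tissue were analysed from processed files in mm10, and reads were not analysed here. Per the notes deposited with the files, peaks were called on each library alone. The sources used here do not name the peak caller or the aligner. Peak strength is the signal value deposited by the authors, whose normalization is not stated, and it was compared between libraries without further scaling. All strengths rest on an unknown depth, so no counting interval is given. False discovery rates (q-values) were deposited by the authors for short intervals and list only values under 0.05. Footprints were deposited as intervals, which the authors derived from that table and their alignments, as the notes state, and their constant value column was not used.

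Coordinates are counted from 1. Genes and starts came from GENCODE M21 and sequence from GRCm38.p6. The 7 promoter windows of these genes in RefSeq's table equalled the genome used. The mice are hybrids, so alleles were not separated. Peaks were placed in windows (the gene and 50 kb on each side) by midpoint, and a promoter peak overlapped 1000 bp on either side of any start. Overlap meant at least 1 bp. Sites are stricter peaks of the libraries merged where they overlap. Percentiles in a library are over its stricter peaks or its genes' promoter peaks, as named. Values are given per library, with the SD over the 2 libraries where averaged. If the shared donor identifier means 1 animal, that SD is technical.

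The genes, the lists and the consensus sequences were chosen with earlier results of these data known. Named beside the 8 genes were, by rule, the 3 strongest stricter peaks away from starts in each window and the coding genes with promoter peaks there, list genes without a promoter peak, the 3 with the strongest promoter peak and the 3 with most peaks, and the nearest gene in the 6 values. Other neighbours, further sites, the Bin1 trio, Aplp2, Uchl1 and the inhibitory-neuron markers were named after their values were seen. Python 3.11.15, numpy 2.4.6, pandas 2.3.3, pysam 0.24.0, samtools 1.23.1 and matplotlib 3.10.9 were used. The counting was tested on simulated data. The values of 1 list gene and of 1 site, which the rule would name, are not reported here. Alternatives changed the promoter distance, window, peak list, overlap and library.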

Additional observations from a re-analysis of the deposited data

How the results depend on the processing

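The count of 8 of 8 genes with a promoter peak was 8 with a distance of 500 bp, the strongest 50% of stricter peaks and coding-transcript starts alone. It was also 8 with the larger broader list, and with 2000 bp or either library alone, which could not lower it. Median counts follow the window. Stricter peaks (5.5 and 4.5 in replicates 1 and 2) gave 3.5 with 10 kb flanks, 2.75 in the gene body, 3.25 among the strongest 50% and 2.25 with peaks near starts left out. Broader peaks (8.5) gave 5.5 with 10 kb flanks and 3.75 without peaks near starts. Footprints (22.8) gave 13.2 with 10 kb flanks and 15.8 inside stricter peaks only. Promoter strength (2.95) gave 3.61 as the sum of promoter peaks. The shared percentage (73.5) gave 51.2 at 50% reciprocal overlap, 87.9 against the other library's broader list and 87.5 for the strongest 50%. The number of genes with a CTCF match rose from 2 to 6 once 1 mismatch was allowed, an alternative chosen after seeing the data. With 1 library left out, medians ran from 4.5 to 5.5 stricter peaks, 8.5 to 8.5 broader peaks, 20.5 to 25 footprints and 2.75 to 3.15 in strength. App rests on the library for its stricter peaks (9 or 4). All these values are counts, strengths or percentages, so none could change sign. No paired analysis was possible because there is 1 group. The depth of the libraries is unknown, so a site missing from a list may be absent or below what the library could show.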
